A study of Danio rerio with 5 samples.

Results

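Mature neuron and synapse genes were taken as 9 gene symbols: aplp1, slc32a1, elavl3, elavl4, gap43, snap25a, snap25b, gad2 and vamp2. They were found by matching the symbols in the array's annotation, which gave 11 probe sets for 8 of the 9 genes. No probe set was annotated to vamp2, and it was not analysed here. The 4 probe sets of elavl3 were built from different source sequences, and each of the other 7 genes had 1 probe set. Of the 11 probe sets, 10 had a mean over the arrays above the level required for testing, and the faintest elavl3 probe set did not. These were 10 of 9301 tested probe sets, and 8 of 6327 tested genes.

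RNA came from wild-type zebrafish embryos at 72 h after fertilization, measured on 5 Affymetrix arrays in 3 groups. The first group, 1 array, was of Bdh2 morphants expressing ectopic Bdh2: a Bdh2 morpholino together with a capped mRNA made from mouse bdh2 cDNA at 50 µg/ml. The second, 2 arrays, was of Bdh2 morphants with the morpholino alone. The third, 2 arrays, was of control morphants. Every group had thus been injected with a morpholino (130 µmol/L, 1 to 2 nL) at the 1- to 2-cell stage, and the labels give neither the site each morpholino binds nor the number of embryos in a sample. A morpholino is a synthetic oligonucleotide that blocks the translation or splicing of a transcript for a limited time, so the Bdh2 morpholino is a transient intervention and not a mutant line. Bdh2 is a dehydrogenase linked to the synthesis of the mammalian siderophore, an iron-binding small molecule. The first comparison asks what differs in embryos given the Bdh2 morpholino. The ectopic array against Bdh2 morphants asks what the added mouse mRNA goes along with. Against controls the ectopic array differs by both the Bdh2 morpholino and the mRNA, so that comparison cannot separate them.

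A neuron that has left the cell cycle first makes Hu proteins, RNA-binding proteins that stabilise neuronal messages, and growth-cone proteins that serve the extending axon. It then makes the machinery of the synapse, where SNARE proteins fuse transmitter-filled vesicles with the membrane. Inhibitory neurons in addition make GABA with glutamate decarboxylases and load it into vesicles with a dedicated transporter. In the zebrafish embryo elavl3 is widely used as a marker of neurons soon after their birth, so the 8 genes cover young as well as mature neurons. The whole embryo was extracted, and fewer neurons cannot be told apart from less RNA per neuron.

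Each probe set has 1 linear intensity per array in the deposited table, and the number of arrays limits the precision. Differences are given as log2 differences of intensity + 16, with a standard error (SE) from 1 limma fit to all 5 arrays. The lone ectopic Bdh2 array has no spread of its own there, and borrows that of the groups with 2 arrays. Median intensity lay between 142 and 174 over the arrays. The targeted gene, bdh2, read 142 with ectopic Bdh2, 235 and 643 in Bdh2 morphants, and 344 and 335 in controls. The 2 morphant arrays thus lay on either side of the controls. Whether this zebrafish probe set also detects the mouse mRNA was not tested. Intensities are of RNA and not of protein, so these values do not show whether the knockdown or the ectopic expression worked. Arrays that share a replicate number were more alike across probe sets than arrays of one group (r = 0.964 and 0.952 for numbers 1 and 2, r = 0.914 for Bdh2 morphants and 0.932 for controls). The ectopic array had r = 0.909 and 0.835 to Bdh2 morphants 1 and 2, and 0.911 and 0.876 to controls 1 and 2. These lie below the values above, though only just for the arrays of number 1, the number in its own label. Probe sets are not independent replicates. The morphant-control difference is therefore also given within each number, as 1 array minus 1 array with no error.

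Against controls, 7 of the 8 genes had lower intensities in both Bdh2 morphant arrays than in both control arrays: aplp1, slc32a1, gad2, snap25a, snap25b, elavl4 and gap43. The exception was elavl3. With ectopic Bdh2 all 8 genes lay above both Bdh2 morphants, and 7 lay above both controls too. None of these differences passed the threshold. By limma, 0 of the 10 tested probe sets had an adjusted p under 0.05 in any of the 3 comparisons, while 4 had an unadjusted p under 0.05 in Bdh2 morphants against controls, 5 in the ectopic array against Bdh2 morphants and 2 in the ectopic array against controls.

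Among all tested probe sets, 0.00% were called lower in Bdh2 morphants at the adjusted threshold and 1.92% had an unadjusted p under 0.05 in that direction. Lower values without overlap of the arrays were found for 14.1% of all tested probe sets, against 7 of the 10 here. In the ectopic array against Bdh2 morphants, 0.505% of all tested probe sets were called lower and 0.0215% higher at the adjusted threshold, 6.76% had an unadjusted p under 0.05 in that direction and 42.7% lay above both morphant arrays. The ectopic array was thus above both morphants for a large part of the transcriptome, and 10 of 10 here is read against that. Against controls 0.667% were called lower and 0.00% higher, 2.35% had an unadjusted p under 0.05 in that direction and 44.0% lay above both controls, where 9 of 10 did here. The last 2 comparisons share the same ectopic array, and each also shares arrays with the first, so their counts are not independent of one another.

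**Figure D1:**
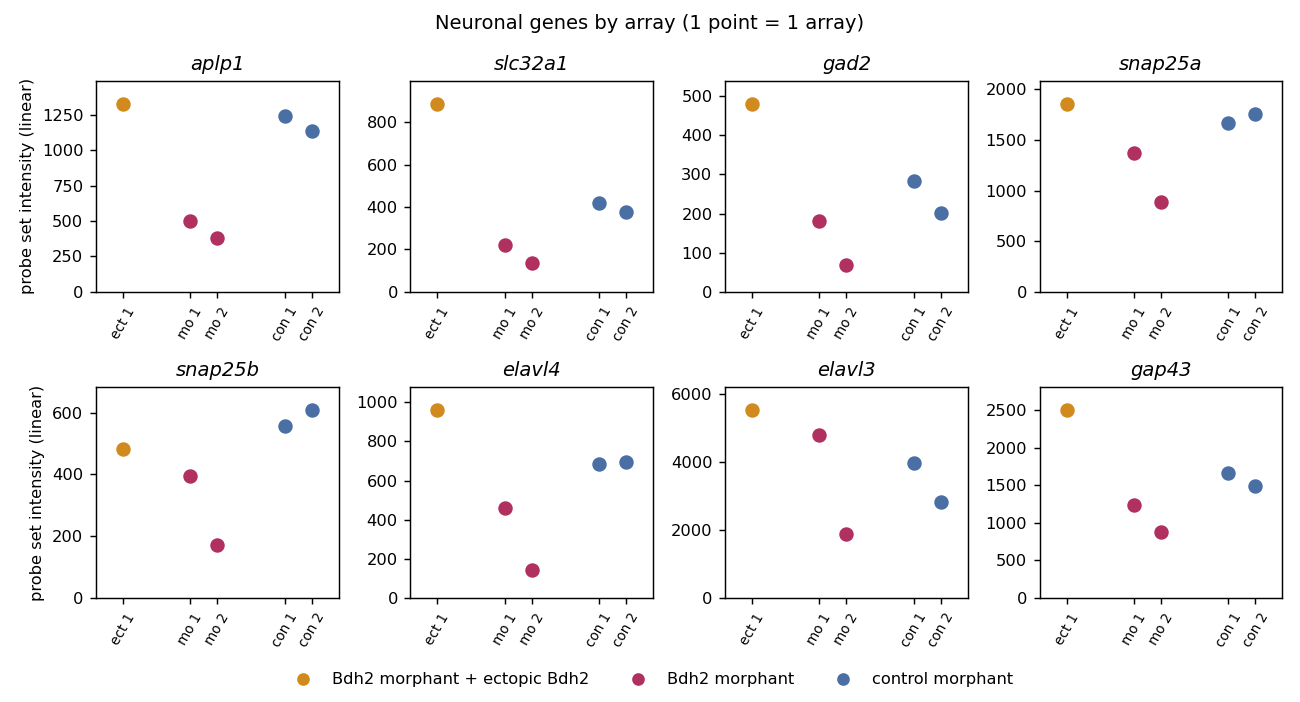
Probe set intensity (linear, from 0) of the 8 genes in the ectopic Bdh2 array (ect 1), the 2 Bdh2 morphant arrays (mo 1, mo 2) and the 2 control arrays (con 1, con 2), with the brightest probe set for elavl3. Both Bdh2 morphant points lie below both control points in every panel except elavl3, and in every panel Bdh2 morphant replicate 2 is the lowest of the 5.

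The lowest morphant values relative to controls were those of aplp1, which codes for amyloid precursor-like protein 1, a membrane protein of the amyloid precursor family that in mammals is made mainly by neurons. Its intensity was 499 and 381 in Bdh2 morphants, against 1242 and 1138 in controls. The morphants averaged 440 ± 83.5 and the controls 1190 ± 73.7 (SD, n = 2 each), so the arrays of a group lay close together and the groups far apart. The log2 difference was -1.41 (SE 0.33; limma unadjusted p = 0.00362, adjusted p = 1.00), and it ranked 14 among 9301 by unadjusted p. It was -1.29 within number 1 and -1.54 within number 2, and of the 8 genes aplp1 had the smallest gap between the numbers. With ectopic Bdh2 aplp1 read 1329, slightly above both controls. This was 1.57 above Bdh2 morphants on the log2 scale (SE 0.40; adjusted p = 0.259) and 0.16 above controls (SE 0.40; adjusted p = 0.939).

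The inhibitory neuron genes slc32a1 and gad2 also lay low in the morphants, and were highest of all with ectopic Bdh2. The transporter that fills synaptic vesicles with GABA or glycine is encoded by slc32a1. Its intensity was 223 and 136 in Bdh2 morphants, against 420 and 376 in controls, with no overlap. The log2 difference was -1.11 (SE 0.37; limma unadjusted p = 0.0197, adjusted p = 1.00), with -0.87 and -1.36 within numbers 1 and 2. With ectopic Bdh2 slc32a1 read 888, which is 4.95 times the morphant mean and 2.23 times the control mean. That was a log2 difference of 2.25 from Bdh2 morphants (SE 0.45; adjusted p = 0.147) and of 1.13 from controls (SE 0.45; adjusted p = 0.678). Leaving out either control array kept the first difference at 2.25, as no control array enters that difference. Taken against a single morphant array, the ectopic value of slc32a1 lay 1.92 above replicate 1 and 2.57 above replicate 2. Each of these fits left a further group with only 1 array, so only the differences are read here.

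One of the glutamate decarboxylases that make GABA is encoded by gad2. It read 182 and 67.6 in Bdh2 morphants, against 283 and 202 in controls. The higher morphant and the lower control were close, and the lower morphant value lies under the intensity of 97.6 that the mean had to exceed for testing. The log2 difference was -0.99 (SE 0.48; adjusted p = 1.00), with -0.59 and -1.38 within numbers 1 and 2. With ectopic Bdh2 gad2 read 481, a log2 difference of 1.95 from Bdh2 morphants (SE 0.59; adjusted p = 0.308) and of 0.96 from controls (SE 0.59; adjusted p = 0.771). In the morphants the log2 difference of gad2 from controls was 0.13 above that of slc32a1, a gap of 0.27 within number 1 and -0.02 within number 2 (exact permutation test over 2 and 2 arrays, two-sided p = 1.00, where 0.333 is the smallest possible, so that this test could not have passed). The other decarboxylase gene on the array, gad1b, read 188 and 116 in Bdh2 morphants, against 355 and 233 in controls. It read 585 with ectopic Bdh2, so gad1b too was lowest in the morphants and highest with ectopic Bdh2, with a log2 difference of -0.89 between morphants and controls (SE 0.40; adjusted p = 1.00).

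The paired SNARE genes snap25a and snap25b code for synaptosomal-associated protein 25, the SNARE that sits on the target membrane and pulls vesicles into fusion. The duplicated zebrafish genes were both lower in the morphants, without overlap. The intensity of snap25a was 1366 and 886 in Bdh2 morphants, against 1670 and 1759 in controls, a log2 difference of -0.63 (SE 0.34; limma adjusted p = 1.00). Within numbers 1 and 2 it was -0.29 and -0.98. The intensity of snap25b was 396 and 173 in Bdh2 morphants, against 556 and 609 in controls, a log2 difference of -1.10 (SE 0.44; limma unadjusted p = 0.0424, adjusted p = 1.00). Within numbers 1 and 2 it was -0.47 and -1.73. The snap25b difference lay 0.47 below that of snap25a, by 0.19 in number 1 and 0.75 in number 2. That gap gave an exact permutation p = 0.333 (two-sided), the smallest that 2 arrays against 2 allow, so that this test could not have passed. How far the probes of one copy also bind transcripts of the other was not tested.

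With ectopic Bdh2, snap25b was the only one of the 8 genes that stayed below both controls. It read 482, a log2 difference of 0.84 from Bdh2 morphants (SE 0.54; adjusted p = 0.576) and of -0.26 from controls (SE 0.54; adjusted p = 0.923). At 1859, snap25a was above all 4 other arrays, though by only 0.12 over controls (SE 0.41; adjusted p = 0.957). Both distances from controls are smaller than their SE.

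Among the Hu genes, both morphant arrays lay below both controls for elavl4, and the groups overlapped for elavl3. The Hu protein of maturing neurons, HuD, is encoded by elavl4. It read 459 and 144 in Bdh2 morphants, against 682 and 693 in controls. The 2 controls were nearly equal while the 2 morphants were 1.57 apart on the log2 scale, the widest morphant spread of the 8 genes. The log2 difference from controls was -1.35 (SE 0.53; limma unadjusted p = 0.0384, adjusted p = 1.00), and it was -0.56 within number 1 and -2.15 within number 2. With ectopic Bdh2 elavl4 read 961, above all 4 other arrays, a log2 difference of 1.83 from Bdh2 morphants (SE 0.65; adjusted p = 0.343) and of 0.47 from controls (SE 0.65; adjusted p = 0.881).

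HuC, the Hu protein of newly born neurons, is encoded by elavl3. The brightest of its 4 probe sets read 4790 and 1875 in Bdh2 morphants, against 3984 and 2816 in controls. One morphant was above both controls and the other below both, so the groups overlapped. The log2 difference was -0.16 (SE 0.46; limma adjusted p = 1.00), positive at 0.26 within number 1 and negative at -0.58 within number 2. The elavl4 difference lay 1.19 below the elavl3 difference, by 0.82 in number 1 and 1.57 in number 2. An exact permutation test gave p = 0.333 (two-sided), the smallest possible, so that this test could not have passed. With ectopic Bdh2 this elavl3 probe set read 5536, a log2 difference of 0.88 from Bdh2 morphants (SE 0.57; adjusted p = 0.571) and of 0.72 from controls (SE 0.57; adjusted p = 0.805).

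The 4 elavl3 probe sets fell into 2 patterns. The second brightest read 321 and 139 in Bdh2 morphants, against 273 and 204 in controls. It thus had the same order of arrays as the brightest probe set, and nearly the same log2 difference of -0.14 (SE 0.46). The third read 123 and 114 in Bdh2 morphants, against 70.8 and 118 in controls, a log2 difference of 0.31 (SE 0.38). The faintest, which was not tested, read 65.3 and 87.8 in Bdh2 morphants, against 25.5 and 101 in controls. In both faint probe sets control replicate 1 was lowest, unlike in the 2 brighter ones, where Bdh2 morphant replicate 2 was. With ectopic Bdh2 all 4 were at their highest, at 403, 230 and 193 for the second, the third and the faintest. None of the 3 tested elavl3 probe sets was lower in both morphants than in both controls.

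**Figure D2:**
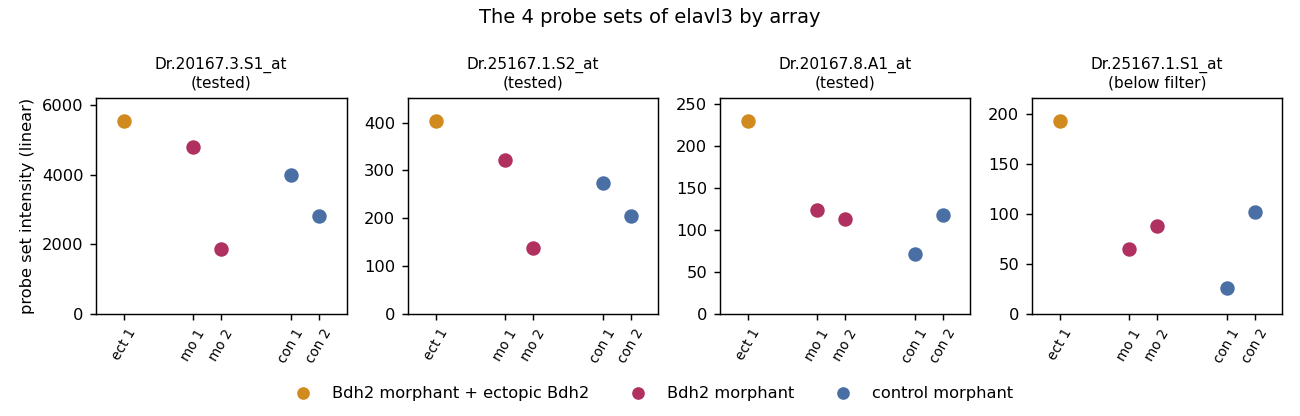
Probe set intensity (linear, from 0) of the 4 elavl3 probe sets in the ectopic Bdh2 array (ect 1), Bdh2 morphants (mo 1, mo 2) and controls (con 1, con 2), from the brightest probe set at left to the faintest at right. The 2 bright probe sets share 1 order of arrays, the 2 faint ones are lowest in control replicate 1, and all 4 are highest with ectopic Bdh2.

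The growth-cone gene gap43 codes for growth-associated protein 43, a membrane-bound protein of extending axons. It read 1239 and 874 in Bdh2 morphants, against 1662 and 1495 in controls, with no overlap. The log2 difference was -0.59 (SE 0.32; limma adjusted p = 1.00), with -0.42 and -0.76 within numbers 1 and 2. With ectopic Bdh2 gap43 read 2506, a log2 difference of 1.25 from Bdh2 morphants (SE 0.40; limma unadjusted p = 0.0160, adjusted p = 0.316) and of 0.66 from controls (SE 0.40; adjusted p = 0.762). It was again the highest of the 5 arrays.

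Ordered by their morphant-control difference, the 8 genes ran from aplp1 (-1.41) through elavl4 (-1.35), slc32a1 (-1.11), snap25b (-1.10), gad2 (-0.99), snap25a (-0.63) and gap43 (-0.59) to elavl3 (-0.16). Their SE ranged from 0.32 to 0.53. Each SE is the error of a gene's own difference and not of a gap between genes on the same arrays. The steps between neighbours in this order were not tested. The widest steps were those from gad2 to snap25a and from gap43 to elavl3. Ordered by the difference of the ectopic array from Bdh2 morphants, slc32a1 (2.25), gad2 (1.95) and elavl4 (1.83) came first. The smallest differences in that comparison were those of elavl3 (0.88), snap25b (0.84) and snap25a (0.75).

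**Figure D3:**
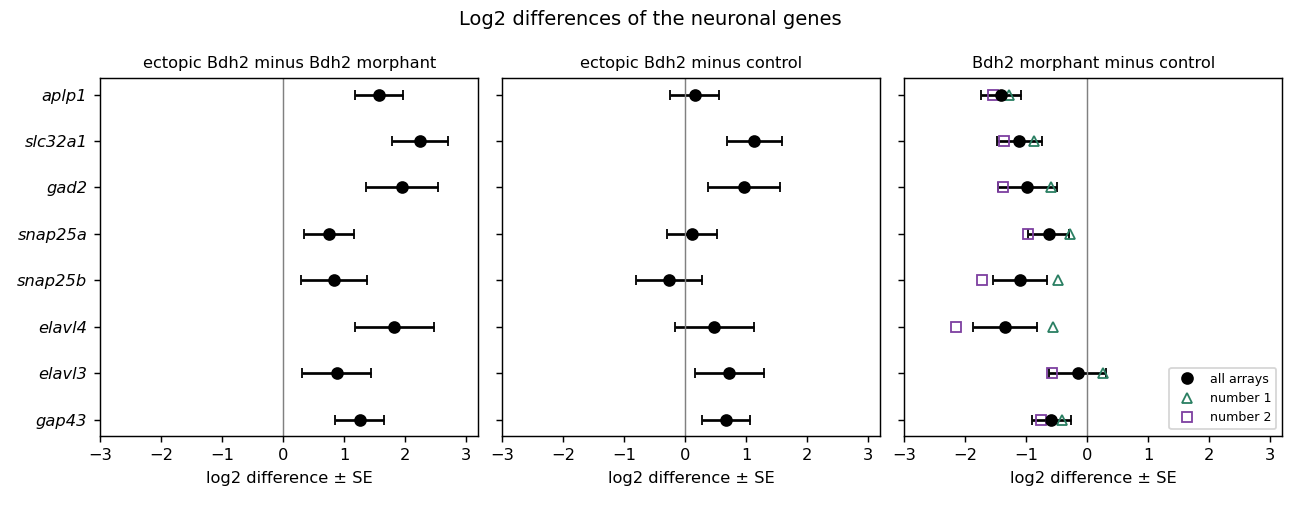
Log2 difference ± SE (points and bars) of the 8 genes for the ectopic Bdh2 array minus Bdh2 morphants, the ectopic array minus controls, and Bdh2 morphants minus controls; open triangles and squares give the last difference within replicate numbers 1 and 2. All 8 points are above 0 in the first panel and below 0 in the third, where number 2 lies to the left of number 1 for every gene.

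The morphant arrays were farther apart than the controls. Replicate 2 minus replicate 1 ranged from -1.57 to -0.38 over the 8 genes in Bdh2 morphants (median -0.89), and from -0.50 to 0.13 in controls (median -0.14). Bdh2 morphant replicate 2 was below replicate 1 for all 8. Within number 1 the morphant-control difference had a median of -0.51 and 7 of 8 genes were lower. Within number 2 the median was -1.37 and 8 of 8 were lower. Of all 6327 tested genes, 3084 were lower within number 1 and 3251 within number 2. As probe sets, 7 of 10 were lower within both numbers, against 28.2% of all tested probe sets. With all arrays the median over the 8 genes was -1.04, and over all tested genes it was 0.02. Without Bdh2 morphant replicate 2 the median over the 8 genes was -0.45, and the individual differences of the 10 probe sets ran from -1.23 to 0.51. Without Bdh2 morphant replicate 1 the median was -1.52. The size of the morphant difference therefore depended on which morphant array was used, and its direction did so only for elavl3.

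The ectopic array stood above Bdh2 morphant replicate 1 by 0.21 to 1.92 over the 8 genes (median 1.02) and above replicate 2 by 1.06 to 2.61 (median 1.66). Its distance from the nearer morphant was smallest for elavl3 (0.21), snap25b (0.27) and snap25a (0.44). It was largest for slc32a1 (1.92), followed by aplp1 (1.39) and gad2 (1.33). Over the 8 genes the ectopic array had a median difference of 1.41 from Bdh2 morphants and of 0.57 from controls, beside 0.08 and 0.09 over all tested genes. Of the 10 probe sets, 6 were lower in both morphants than in both controls and highest of all with ectopic Bdh2, against 7.04% of all tested probe sets.

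**Figure D4:**
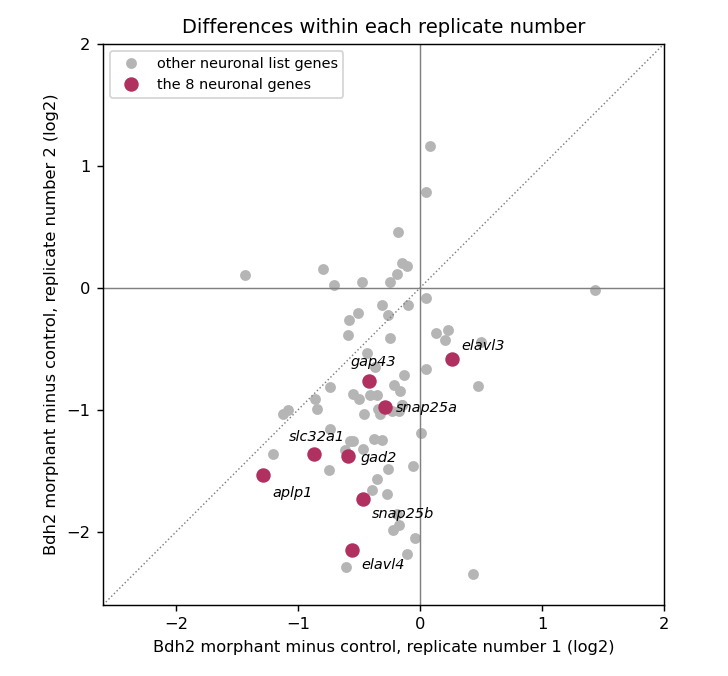
Bdh2 morphant minus control difference (log2) within replicate number 1 (horizontal) and number 2 (vertical). The 8 genes are red and 69 further genes of the neuronal lists are grey. Each point is 1 gene, and the dotted line marks equal differences. All 8 red points lie below the dotted line, and elavl3 is the one red point right of 0.

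Further genes were followed with 6 neuronal lists of 242 symbols in all, outside the 8 genes. The lists also hold genes that are not confined to neurons, such as the widely expressed elavl1a and elavl1b. Of these, 100 were on the array and 69 were tested. In Bdh2 morphants 62 of the 69 had lower values, with a median log2 difference of -0.61, where 47.1% of all tested genes were lower. The values were -0.27 within number 1 and -0.88 within number 2. The arrays did not overlap for 39 genes on the lower side, against 13.6% of all tested genes, and for 2 on the higher side, against 11.5%. An unadjusted p under 0.05 was reached by 6 of the 69, all lower, against 1.80% of all tested genes, and an adjusted p under 0.05 by 0 (limma). The lists were made with earlier results of these arrays known.

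All 14 tested genes of synaptic vesicle release were lower (median -0.75, within numbers -0.35 and -1.21). The active zone scaffold gene rims2a read 118 and 62.7 in Bdh2 morphants, against 170 and 181 in controls, a log2 difference of -0.90 (SE 0.39). The synuclein genes sncb and sncgb, which code for small presynaptic proteins, differed by -0.81 (SE 0.37) and -0.71 (SE 0.33). For sncb the intensities were 3471 and 1734 in Bdh2 morphants, against 4520 and 4119 in controls. With ectopic Bdh2 all 14 release genes had higher values than the morphants, with a median of 1.16, where 54.6% of all tested genes were higher.

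Of 22 tested genes of the axon, cytoskeleton and adhesion, 20 were lower (median -0.64, within numbers -0.22 and -0.95). The actin regulator gene evlb was nearly alike in both numbers: it read 278 and 209 in Bdh2 morphants, against 663 and 562 in controls, a log2 difference of -1.29 (SE 0.34; limma unadjusted p = 0.00719, adjusted p = 1.00). The cannabinoid receptor-interacting gene cnrip1a differed by -0.92 (SE 0.36) and the tubulin gene tuba2 by -1.12 (SE 0.48). With ectopic Bdh2 evlb read 1042, above all 4 other arrays, and 20 of the 22 genes had higher values than the morphants.

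All 7 tested genes of neuronal RNA-binding proteins were lower (median -0.90, within numbers -0.17 and -0.999), among them rbfox1, a splicing regulator (-1.04, SE 0.34), celf3a (-0.90, SE 0.41) and celf4 (-1.15, SE 0.58), which was -0.11 within number 1 and -2.19 within number 2. In the ectopic array 6 of these 7 had higher values than the morphants, where 54.6% of all tested genes were higher. The exception, rbfox1l, is named here after its values were seen. It lay at -1.32 from the morphants (SE 0.71) and -1.99 from controls (SE 0.71). Its morphant-control difference was -1.44 within number 1 and 0.11 within number 2. All 5 tested ion channel and pump genes were lower (median -0.96, within numbers -0.36 and -1.57). They included atp1a3a, the neuronal sodium pump subunit (-0.98, SE 0.42; within numbers -0.27 and -1.70), and atp2b3a, a plasma membrane calcium pump (-0.96, SE 0.42). The largest difference of that list was that of slc1a2b (-1.45, SE 0.56; within numbers -0.61 and -2.29), a glutamate transporter that in mammals is made mainly by astrocytes. All 6 tested genes of transmitter synthesis, transport and reception were lower (median -0.56, within numbers -0.49 and -0.77), including gad1b and the calcium-binding calretinin genes calb2b (-1.03, SE 0.41) and calb2a (-0.61, SE 0.36). None of these passed the threshold.

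The tested transmitter genes were split with ectopic Bdh2: gad1b lay 1.87 above the morphants and calb2a 0.28 above. Of those 6, 4 had lower values than the morphants, where 45.4% of all tested genes were lower, and the list's median difference was -0.56 from Bdh2 morphants and -1.14 from controls. The 4 were calb2b, slc18a3a, chrna1 and glra4a, of which the last 3 are named here after their values were seen. The acetylcholine receptor subunit chrna1, found in mammals mainly in muscle, had the lowest value at -2.22 against controls (SE 0.55; limma unadjusted p = 0.00526). In the same array the summed intensity of 14 skeletal muscle markers was 32554, against 189200 and 217320 in Bdh2 morphants and 233130 and 257260 in controls. The part of the muscle share in the transmitter values, or in the low ectopic value of rbfox1l, was not tested.

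Relatives of the 9 genes first named, vamp2 among them, lay nearer to 0. They were chosen by protein family or, for gap43, as other growth-cone genes. Of 16 tested, 11 were lower and the median was -0.11 (within numbers -0.17 and -0.11). The vesicle SNARE gene vamp1a read 132 and 126 in Bdh2 morphants, against 306 and 276 in controls, a log2 difference of -1.08 (SE 0.33; limma unadjusted p = 0.0142, adjusted p = 1.00). It read 128 with ectopic Bdh2, so that vamp1a stayed at the morphant level there, unlike the 8 genes. Among relatives of aplp1, the amyloid precursor gene appa differed by -0.48 between morphants and controls (SE 0.28), appb by -0.55 and aplp2 by 0.03. The widely expressed Hu genes elavl1a and elavl1b differed by -0.12 and -0.04. Values for appb, aplp2, elavl1a and elavl1b are given although they lie outside the rule for named genes, to set whole families side by side.

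**Figure D5:**
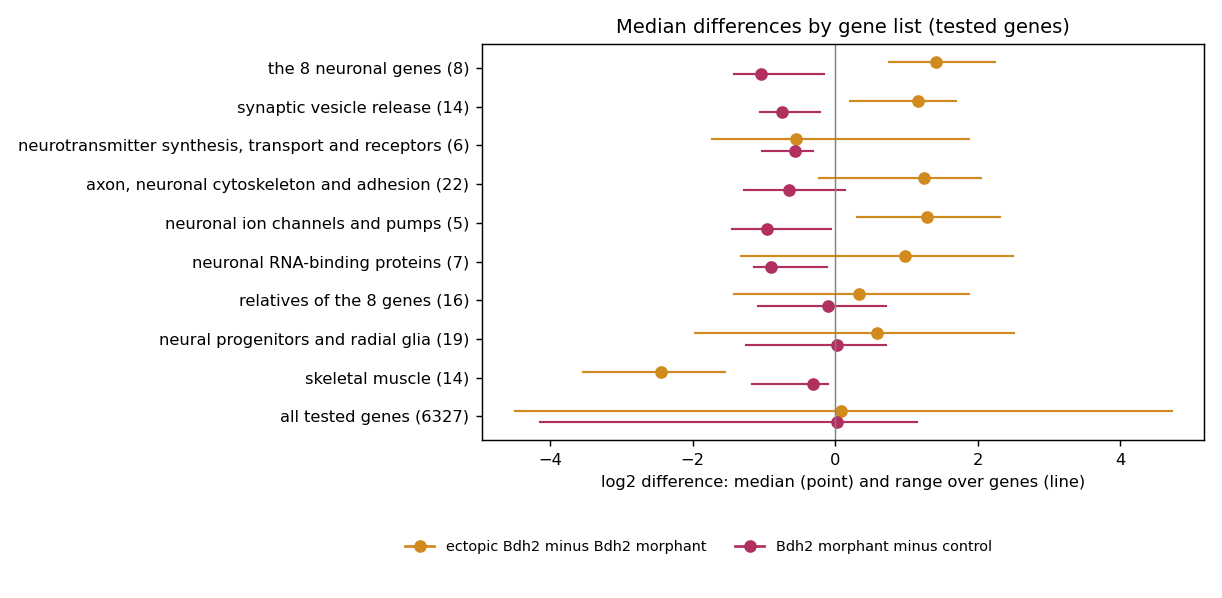
Median (point) and full range over genes (line) of the log2 differences for the 8 genes, the 6 neuronal lists, 2 lists of other cells and all tested genes, for the ectopic Bdh2 array minus Bdh2 morphants (orange) and Bdh2 morphants minus controls (red), with the number of tested genes in brackets. The list labelled as relatives of the 8 genes also holds relatives of vamp2. The red medians of the neuronal lists lie between -0.96 and -0.11, beside 0.03 for neural progenitors and 0.02 for all tested genes.

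The genes whose values followed the 8 most closely over the 5 arrays were atp6v0cb, lmbrd2b, sncb, nsg2 and atp1b2a. Likeness was the root mean square distance, on the log2 scale, of a gene's centred profile from the median profile of the 8. That median profile was 0.73 with ectopic Bdh2, -0.14 and -1.12 in Bdh2 morphants, and 0.36 and 0.20 in controls. The distance was 0.04 for atp6v0cb, which codes for a subunit of the proton pump that acidifies vesicles, and 0.09, 0.10, 0.11 and 0.11 for the next 4 in order. Its median over 6319 other tested genes was 0.66. The 5 genes were picked as the nearest of these, so that they lie under this median is built in. The 8 genes themselves lay at 0.21 (gap43) to 0.38 (elavl3). As the profile is their own median, their nearness to it is built in and is not set against 0.66. The intensity of atp6v0cb was 2626 with ectopic Bdh2, 1339 and 667 in Bdh2 morphants, and 1914 and 1736 in controls. The arrays of aplp1, slc32a1, gad2 and gap43 had the same order, and those of the other members did not.

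Lists of markers for other cells differed in whether they lay lower in the morphants. The summed intensity of the 8 genes was 9155 and 4536 in Bdh2 morphants, against 10497 and 9086 in controls. These sums overlap. Without elavl3 they do not, at 8507 with ectopic Bdh2, 4365 and 2661 in Bdh2 morphants, and 6513 and 6271 in controls. That follows from leaving out elavl3, as each remaining gene was lower in both morphants than in both controls. It is no separate result. Neural progenitor and radial glia markers (22 of 30 on the array) summed to 54019 with ectopic Bdh2, 48554 and 48521 in Bdh2 morphants, and 46659 and 43533 in controls. Of the 19 tested progenitor genes 8 were lower in the morphants, with a median of 0.03. Epidermal markers (7 of 10) summed to 45817 with ectopic Bdh2, 75320 and 72974 in Bdh2 morphants, and 73607 and 62884 in controls. Of the 7 tested, 2 were lower in the morphants (median 0.14), and all 7 were lower with ectopic Bdh2 than in the morphants. Red blood cell markers (7 of 11) summed to 38250 with ectopic Bdh2, 62541 and 34736 in Bdh2 morphants, and 76987 and 35533 in controls, so that the sums split by replicate number. For all 7 tested red cell genes the arrays of morphants and controls overlapped, and 6 of these genes were lower in the morphants. Their median was -0.69, and -0.54 and -0.63 for numbers 1 and 2, which is as far below 0 as the neuronal lists together. No marker on the array was at 0 throughout.

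In Bdh2 morphants the skeletal muscle and photoreceptor lists, like that of red cells, lay lower than in controls, as did the neuronal lists. Skeletal muscle markers (14 of 18) summed to less in both morphants than in both controls, and all 14 tested genes were lower. Their median was -0.31, and -0.20 and -0.38 for numbers 1 and 2. All 14 also had lower values with ectopic Bdh2 than in the morphants (median -2.44), where 45.4% of all tested genes were lower. The 8 neuronal genes were instead all higher in that array. Photoreceptor markers (11 of 18, of which 3 were tested) summed to 1676 with ectopic Bdh2, 426 and 460 in Bdh2 morphants, and 1586 and 1621 in controls, and all 3 tested genes were lower in the morphants (median -1.78). Without crx, a transcription factor of photoreceptors and bipolar cells, they summed to 587 with ectopic Bdh2, 384 and 446 in Bdh2 morphants, and 505 and 1135 in controls. Oligodendrocyte and Schwann cell markers (5 of 10) summed to 2573 with ectopic Bdh2, 1631 and 1836 in Bdh2 morphants, and 2119 and 2003 in controls. Macrophage and microglia markers (5 of 7) summed to 3251 with ectopic Bdh2, 9618 and 22050 in Bdh2 morphants, and 10485 and 13080 in controls. In each of these last lists 2 of the 4 tested genes were lower in the morphants. The median was -0.14 for oligodendrocyte and Schwann cells and -0.04 for macrophages and microglia. Of the 4 tested macrophage and microglia genes, 3 were higher with ectopic Bdh2 than in the morphants, where 54.6% of all tested genes were. The remaining gene lay at -2.50, so the fall of the summed intensity was not shared by most of these genes.

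The 3'/5' signal ratio of the muscle actin control probe sets, which is higher in degraded RNA, was 6.63 with ectopic Bdh2, 11.8 and 3.49 in Bdh2 morphants, and 4.28 and 2.60 in controls. The ratio for GAPDH was 1.99 with ectopic Bdh2, 2.82 and 1.71 in Bdh2 morphants, and 2.68 and 1.50 in controls. Both ratios were thus higher in morphants than in controls within each number, and higher in number 1 than in number 2 within both groups. The part of RNA quality or of cell make-up in the neuronal differences was not tested.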

How the data were processed

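Total RNA of 5 zebrafish samples was hybridised to 1 array each. The deposited values are linear probe set intensities, and the submitters' processing notes name Affymetrix Expression Console without its role. How probes were summarised or arrays scaled is not stated there. Array medians differ, so the probe set values were not quantile normalised as a last step. Whether probes were, before they were summarised, cannot be read from these medians. Of 15617 probe sets, 115 Affymetrix controls were set aside. The other 15502 were converted to log2(intensity + 16), and 9301 with a mean above the 40th percentile (intensity 97.6) were tested. No call of presence per array was used.

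Symbols came from the platform annotation, of which 10718 matched the RefSeq gene table by gene identifier and 1 was updated. One probe set had several symbols in 135 cases and none in 4680. Where a gene had several tested probe sets, lists used the one with the highest mean. Sequences of the genes were not used here.

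A mean per group was fitted to all 5 arrays with limma 3.58.1 (R 4.3.3) and an intensity-dependent prior; 2 residual and 4.89 prior degrees of freedom resulted. The two-sided p-values took the Benjamini-Hochberg adjustment over every tested probe set, with a threshold of 0.05. Pairs of genes were compared by an exact permutation test of their log2 difference per array. The labels do not say that replicates came from separate clutches, so p-values measure the spread between these samples, which may be technical. The fit was also run on simulated data with arrays drawn independently, so that run does not cover arrays that are alike by replicate number.

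The members, the lists and the alternatives were chosen with earlier results of these data known. Named genes were the members, bdh2, the 3 genes of each list with the smallest unadjusted p in Bdh2 morphants against controls, and the 5 genes nearest in profile; others are said to lie outside this rule.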

Additional observations from a re-analysis of the deposited data

How the results depend on the processing

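The direction of the morphant-control difference was kept for the 7 genes other than elavl3 under all 14 alternatives (13 for gad2, which the filter at the 60th percentile removed), and the median over the 8 genes ran from -1.52 to -0.45 when 1 array was left out. The median of the 69 neuronal list genes ran from -0.94 to -0.28. For elavl3 the difference reversed without control replicate 1, to 0.09 for its brightest probe set, 0.06 for the second and -0.00095 for the third, and without Bdh2 morphant replicate 2 it was 0.51 and 0.42 for the first 2. With 1 array left out, the 3 probe sets ran from -0.83 to 0.51, from -0.70 to 0.42 and from -0.00095 to 0.63. Leaving out 1 array unbalances the replicate numbers. The ectopic-control difference of snap25a became -0.019 with the replicate block and the ectopic array in block 1.

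The replicate numbers are not stated to mark a batch, and deviations from the group means correlated at r = 0.538 between arrays of one number. With the replicate block, 3 probe sets passed as lower in Bdh2 morphants against controls, none of them a member. Against Bdh2 morphants the ectopic array then had 108 lower and 43 higher (block 1) or 348 lower and 475 higher (block 2), and against controls 126 lower and 9 higher (block 1) or 266 lower and 127 higher (block 2). The main counts were 47 lower and 2 higher, and 62 lower and 0 higher. In block 2, 5 members passed as higher against Bdh2 morphants: slc32a1 (2.45, limma adjusted p = 0.0129), gad2 (2.37, 0.0203), aplp1 (1.70, 0.0253), gap43 (1.42, 0.0385) and elavl4 (2.21, 0.0470). In block 1, which goes with the label of the ectopic array (replicate 1), none did. Block 2 departs from that label.

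Without the filter the ectopic array had 17 lower and 0 higher against Bdh2 morphants and 38 lower against controls, and with the 60th percentile it had 1 higher against Bdh2 morphants. Without the trend in the prior these were 0 lower and 0 higher, and 40 lower against controls. With 1 array left out, the counts ran from 0 to 5 lower for morphants against controls (4 without control replicate 1, 5 without control replicate 2), from 0 to 153 lower and 0 to 69 higher for the ectopic array against Bdh2 morphants (151 and 65 without control replicate 1, 153 and 69 without control replicate 2; leaving out Bdh2 morphant replicate 2 gave 0 and 0), and from 83 to 122 lower and 1 to 10 higher against controls. The member count for the ectopic array against Bdh2 morphants ran from 0 to 1 (slc32a1). The causes of these shifts were not tested.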
